A study of Sus scrofa with 2 samples.

Results

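Ensembl transcripts between 120 and 149 bases long were followed in pig ovary at 30 and 90 days after birth. They were chosen by identifier and annotated length among the features with a read in either library. A transcript without reads at both ages was not listed and could not enter the set. The set numbered 142 of the 400 Ensembl transcripts and of all 88173 features listed in either table. The 30-day group and the 90-day group consisted of ovaries from Landrace x Yorkshire crossbred gilts, 6 animals in all, which shared housing and diet. For each age the RNA of the animals was mixed in equal amounts and sequenced as 1 library, so the differences below describe a pair of pools and have no replicate check. The split of the 6 animals between the ages was not given in the sources used here. In whole ovary, fewer cells of a type and less RNA per cell cannot be told apart.

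This length span is that of the H/ACA box small nucleolar RNAs and of the U4 spliceosomal RNA. H/ACA RNAs fold into a pair of hairpins and, with dyskerin and its partner proteins, guide the conversion of uridine to pseudouridine in ribosomal and spliceosomal RNA. U4 pairs with U6 and holds it inactive until the spliceosome is activated, and many mammalian H/ACA RNAs are cut from introns of host genes. None of the 142 identifiers (0 matches) was paired with a gene name by the tables used here, so which of them belong to these families, and whether ovarian marker genes were present, was not analysed here. Length alone places a transcript in the set, and no sequence was used here to check it.

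The libraries held 9376506 reads at 30 days and 10706106 at 90 days. The 4 most abundant features of the catalogue, all longer than the transcripts described here, took 55.7% of the younger library and 69.3% of the older one. Values are therefore given on the library total, as counts per 1000000 reads (CPM), and also on the total without those 4 features, which was 4155947 reads at 30 days and 3284667 at 90 days. Moving from the former to the latter raises every log2 ratio of 90 to 30 days by 0.53. Intervals are exact (Clopper-Pearson) at 95% and cover counting error only, since without molecular identifiers several reads may stem from 1 molecule.

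Together the 142 transcripts held 23689 reads at 30 days and 23934 at 90 days. This was 0.253% of the library at 30 days (0.249 to 0.256) and 0.224% at 90 days (0.221 to 0.226), a ratio of 0.885 (0.869 to 0.901). The direction of that difference turned with the scale and with a single transcript. On the reduced total, which leaves out the 4 leading features, the ratio was 1.28 (1.26 to 1.30). Without the most abundant transcript of the set it was 1.13 (1.10 to 1.15) on the library total and 1.63 (1.60 to 1.66) on the reduced total.

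The reads were concentrated in a few transcripts while many members had few reads. Of the 142, 109 had reads at both ages, 25 at 30 days alone and 8 at 90 days alone. Of all 88173 features, 73246 had reads at both ages, 9998 at 30 days alone and 4929 at 90 days alone. In the set, the transcripts read at 30 days alone had at most 5 reads, and 14 of them had 1 read. Those read at 90 days alone had at most 7, and 4 of them had 1. A count of 0 allows up to 3 reads, or 0.320 CPM at 30 days and 0.280 CPM at 90 days, so these one-sided detections say little about absence. The median transcript of the set had 7 reads at 30 days and 7.5 at 90 days, counting absences as 0. The 10 most abundant of each library held 76.9% of the set's reads at 30 days and 75.5% at 90 days. Only 6 transcripts were in both of these groups of 10, whereas 18 were in both groups of 20.

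Levels of different transcripts were compared as the deposited RPKM, which divides by length. The most abundant transcript at 30 days was one of 141 bases, with 7714 reads and 5835 RPKM. It had 3367 reads and 2230 RPKM at 90 days, where it was second. Its share of the set's reads was 32.6% at 30 days (31.97 to 33.2) and 14.1% at 90 days (13.6 to 14.5). A different transcript of the same length took the first place at 90 days. That second 141-base transcript had 2799 reads and 2117 RPKM at 30 days, and 4932 reads and 3267 RPKM at 90 days. Its share of the set was 11.8% at 30 days (11.4 to 12.2) and 20.6% at 90 days (20.1 to 21.1). The shares within the set do not depend on the library total, and the order of these 141-base transcripts was thus exchanged between the pools. Whether the pair shares sequence was not analysed here.

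The third at both ages was the 145-base transcript, with 2102 reads and 1546 RPKM at 30 days and 3125 reads and 2013 RPKM at 90 days. The 135-base transcript that was the fourth at 30 days had 1812 reads and 1431 RPKM there, and 949 reads and 657 RPKM at 90 days. In the plot of RPKM for the 20 most abundant transcripts, those first 4 stand apart at 30 days. At 90 days the level passed from 2013 RPKM for the third to 849 for the fourth, a 138-base transcript that ranked 14 at 30 days. Behind them, a 146-base transcript had 489 RPKM at 30 days and 624 at 90 days, and one of 130 bases had 467 and 555. The 136-base transcript with rank 10 by mean CPM had 393 and 457. These last 3 were slightly higher at 90 days on the library total, with CPM ratios of 1.28 (1.16 to 1.41), 1.19 (1.07 to 1.33) and 1.16 (1.03 to 1.31) in that order. On the reduced total the ratios were larger, at 1.85, 1.72 and 1.68.

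**Figure D1:**
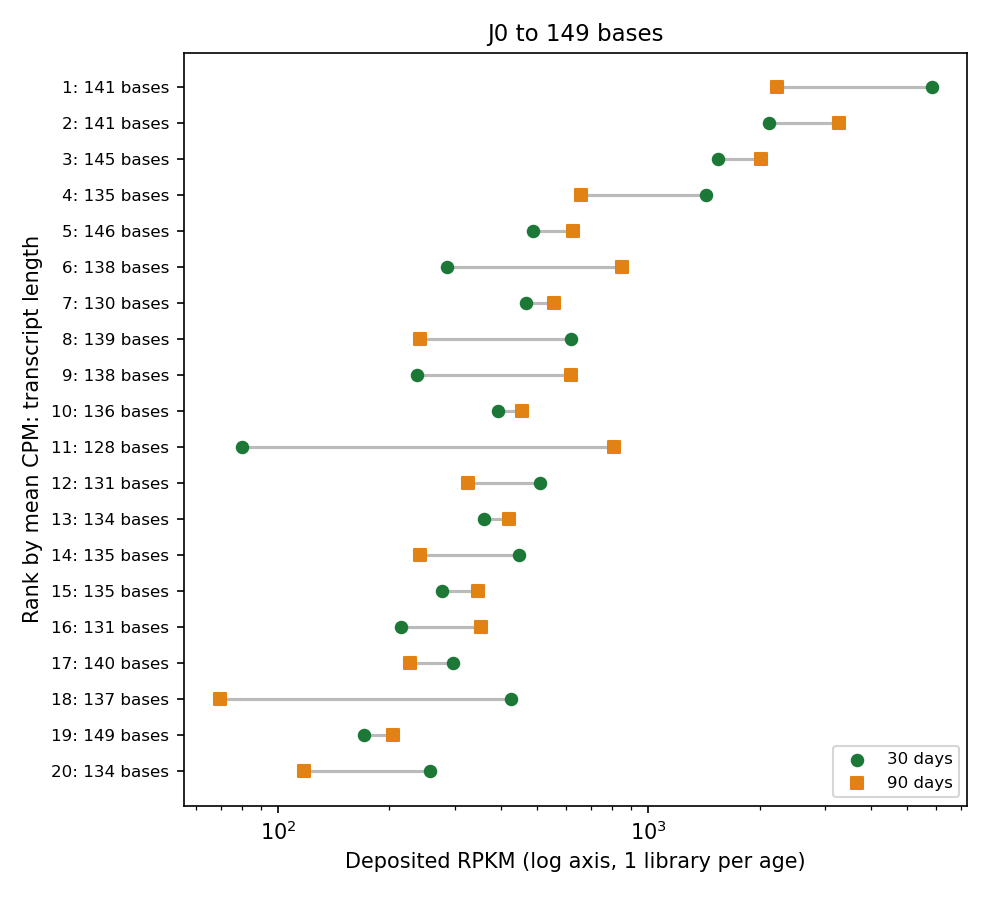
Deposited RPKM (log axis) of the 20 transcripts with the largest mean CPM, each labelled by its rank and length, with circles for the 30-day library and squares for the 90-day library. The first transcript lies at 5835 RPKM at 30 days and 2230 at 90 days, and the transcripts ranked 11 and 18 show the widest gaps.

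The ages were compared over the 71 transcripts that reached 1 CPM at either age, which is 50% of the set. The other 71 had at most 9 reads at 30 days and at most 10 at 90 days, and held 0.713% and 0.714% of the set's reads. A transcript was called higher or lower where log2((CPM at 90 days + 1)/(CPM at 30 days + 1)) reached a 2-fold difference, a rule of size without a test, which understates the change of low transcripts. By this rule 7 of the 71 (9.86%) were higher at 90 days, against 14.6% of all 73973 features compared. Another 15 (21.1%) were lower, against 36.6% of all features, and 49 were neither. The median log2 fold was 0.02 over the 71 transcripts and -0.49 over all features, and 35 of the 71 had a value below 0. The median transcript of the 71 therefore had nearly equal CPM at both ages on the library total. The spread around it was wide, with quartiles of the log2 fold at -0.89 and 0.39.

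The scale changed which direction prevailed. On the reduced total, which also raises every CPM against a fixed pseudocount and minimum, 23 of 91 transcripts (25.3%) were higher and 12 (13.2%) lower. The shares of all features were then 30.5% higher and 32.7% lower, and the median log2 fold was 0.49 in the set and -0.05 over all features. With TMM factors, edgeR's trimmed mean of the log ratios of all features, 12 of 72 (16.7%) were higher and 7 (9.72%) lower. The shares of all features with these factors were 21.3% and 30.0%, and the medians 0.34 and -0.19. Median-of-ratios factors also gave 12 and 7 of 72, against 21.9% and 29.6% of all features. All 7 transcripts called higher on the library total were also called higher on the reduced total and with both kinds of factor. Of the 15 called lower, 7 kept that call under all of these. Each of these scalings raises every ratio of the older to the younger library, so a higher call could not be lost. The kept calls therefore do not show that the higher calls are firmer than the lower ones. The stricter demand that the exact interval of the CPM ratio lie wholly beyond 2-fold left 5 higher (7.04%) and 9 lower (12.7%), against 8.81% and 29.2% of all features. With a pseudocount of 0.1 CPM on the library total, 11 (15.5%) were higher and 23 (32.4%) lower, against 23.6% and 44.7% of all features. At a 4-fold threshold 3 (4.23%) were higher and 1 (1.41%) lower, against 1.49% and 9.06%.

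**Figure D2:**
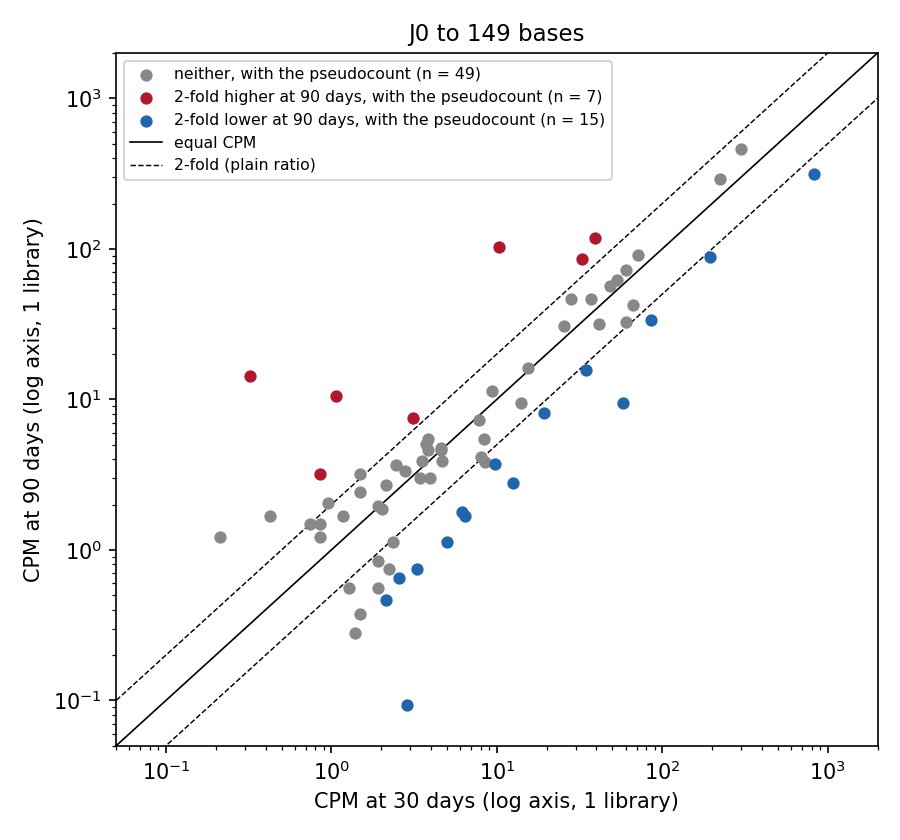
CPM at 90 days against CPM at 30 days (log axes, library total) for the 71 compared transcripts, coloured by the call, with the line of equal CPM and dashed lines at plain 2-fold ratios. Points lie on both sides of the line of equal CPM, with 7 above and 15 below called. Some low transcripts outside the dashed lines were not called because of the pseudocount.

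Among the 7 transcripts higher at 90 days, 5 had at least 100 reads in at least 1 library. The largest log2 fold belonged to ENSSSCT00000020215, of 131 bases, with 3 reads (0.320 CPM) at 30 days and 153 reads (14.3 CPM) at 90 days. Its CPM ratio was 44.7 (15.0 to 219.0), an interval made wide by the 3 reads. ENSSSCT00000031393, of 128 bases, had 96 reads (10.24 CPM) at 30 days and 1108 reads (103.5 CPM) at 90 days, or a CPM ratio of 10.1 (8.20 to 12.6). It moved from rank 24 of the set by reads at 30 days to rank 5 at 90 days, and on the reduced total its ratio was 14.6. A transcript of 132 bases was similar in ratio at a lower level, with 10 reads in the younger pool against 113 in the older, or 9.90 (5.19 to 21.2). With the pseudocount, these 3 were the transcripts past a 4-fold difference upwards.

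A pair of transcripts of 138 bases were also higher, at ratios near each other. The more abundant of them had 369 reads (39.4 CPM) at 30 days and 1255 (117.2 CPM) at 90 days, or a CPM ratio of 2.98 (2.65 to 3.35). The other had 308 reads (32.8 CPM) and 913 (85.3 CPM), a ratio of 2.60 (2.28 to 2.96). Their intervals overlap, and on the reduced total the ratios were 4.30 and 3.75. The remaining pair were low: a 137-base transcript had 8 and 34 reads, with a CPM ratio of 3.72 (1.69 to 9.31), and another of 132 bases had 29 and 80, with 2.42 (1.56 to 3.83). The 7 together held 3.47% of the set's reads at 30 days and 15.3% at 90 days, values that follow in part from how the call selects them.

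Of the transcripts lower at 90 days, ENSSSCT00000032252, of 137 bases, had the largest log2 fold with the pseudocount of 1 CPM. It had 546 reads (58.2 CPM) at 30 days and 102 reads (9.53 CPM) at 90 days, so its CPM was 6.11 times higher in the younger pool (4.94 to 7.63). On the reduced total its ratio of 90 to 30 days was 0.236, and it was the one transcript of the set past a 4-fold difference downwards with the pseudocount. The smallest plain CPM ratio among the transcripts called lower was that of ENSSSCT00000021229, of 131 bases, which had 27 reads at 30 days against 1 at 90 days, and a CPM ratio of 0.0324 (0.000792 to 0.197). Close behind in log2 fold, a 130-base transcript had 117 reads in the younger pool against 30 in the older, or 0.225 (0.145 to 0.338). These 3 were called lower under each of the 4 scalings.

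For 5 of the 7 transcripts called lower with at least 100 reads at 30 days, the call depended on the scale. The first 141-base transcript had a ratio of 0.382 (0.367 to 0.398) on the library total and 0.552 on the reduced total, where it was not called. A 139-base transcript with 807 reads at 30 days and 359 at 90 days had 0.390 (0.343 to 0.442) and 0.563. The 135-base transcript that was the fourth at 30 days had 0.459 (0.424 to 0.496) and 0.663. Likewise a 134-base transcript with 323 and 169 reads had 0.458 (0.378 to 0.554) and 0.662, and another of that length with 180 and 87 reads had 0.423 (0.324 to 0.550) and 0.612. Their ratios stayed below 1 on both totals. The 2 of the 7 called under every one of the 4 scalings were ENSSSCT00000032252 and the 130-base transcript with 117 reads.

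The other 8 transcripts called lower had between 20 and 92 reads at 30 days. A 124-base transcript had 58 and 19 reads, with a CPM ratio of 0.287 (0.161 to 0.489), and one of 130 bases had 60 and 18, with 0.263 (0.146 to 0.451). Transcripts of 135 bases gave 47 and 12 reads, with 0.224 (0.108 to 0.428), and 92 and 40 reads, with 0.381 (0.256 to 0.558). One of 134 bases had 31 and 8 reads, one of 133 bases 24 and 7, and one of 126 bases 20 and 5, with ratios of 0.226, 0.255 and 0.219. Intervals of these last 3 reach above 0.5, as did that of the 135-base transcript with 92 reads. That 135-base transcript was not called on the reduced total or with either kind of factor, and those of 133 and 126 bases were not called with either kind of factor. The last of the 8 is ENSSSCT00000021229, described above.

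Among the 20 most abundant transcripts, 12 were called in neither direction on the library total, with ratios from 0.538 to 1.64. The second 141-base transcript, at 1.54 (1.47 to 1.62), was one of these, but at 2.23 on the reduced total it was called higher there and with both kinds of factor. The 145-base transcript, at 1.30 (1.23 to 1.38) and 1.88, was not called on any scale used. Taking the 24 transcripts with a mean of at least 10 CPM, which held 93.1% of the set's reads at 30 days and 92.9% at 90 days, 3 were higher and 6 lower, with a median log2 fold of 0.21. All 4945 features at that abundance had a median of -0.54, with 10.1% higher and 38.3% lower, against 12.5% and 25% in the set.

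Within the set, length was uneven. The 85 transcripts of 130 to 139 bases made up 59.9% of the members, and held 9054 reads at 30 days and 9122 at 90 days. The 20 of 140 to 149 bases held more, 14100 and 13269 reads, most of them in the pair of 141 bases and the 145-base transcript. The 37 of 120 to 129 bases held 535 reads at 30 days and 1543 at 90 days. That 2.53-fold higher CPM of the shortest group (2.29 to 2.79) comes largely from ENSSSCT00000031393, which supplied 96 and 1108 of those reads. Calls came to 1 higher and 2 lower of 12 compared in the shortest group, 6 and 12 of 46 in the middle group, and 0 and 1 of 13 in the longest. On the reduced total they were 7 and 2 of 18, 13 and 9 of 58, and 3 and 1 of 15. Over all features, 14.6% were higher and 36.6% lower on the library total, and 30.5% and 32.7% on the reduced total.

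Neighbouring length classes of Ensembl transcripts are given beside the set as a description, since with 1 library per age the classes could not be tested against each other. Of the 110 transcripts of 91 to 119 bases, 12 were compared, and 0 were higher and 10 lower, with a median log2 fold of -2.00. That class held 2747 reads in the younger pool and 377 in the older, a CPM ratio of 0.120 (0.108 to 0.134). Of the 37 transcripts of 150 bases or more but under 200, 23 were compared, 4 higher and 8 lower, with a median of -0.32 and 89985 and 35600 reads. The 111 of 200 bases or more gave 6 higher and 12 lower of 50, with a median of -0.30. The set's median of 0.02 was the highest of the 4 classes on the library total. On the reduced total it was 0.49, and the others were -1.40, 0.19 and 0.19 from the shortest to the longest. Calls in those others then came to 5 higher and 11 lower of 20, 8 and 7 of 25, and 14 and 13 of 68. The shares of all features were 14.6% higher and 36.6% lower on the library total, and 30.5% and 32.7% on the reduced total.

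**Figure D3:**
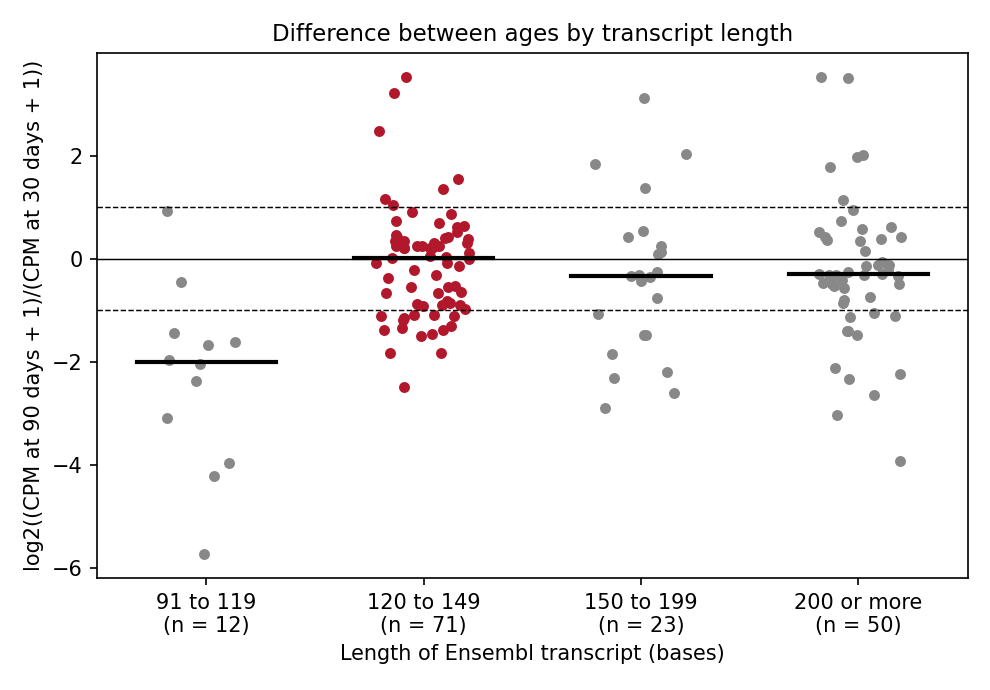
Log2 fold between ages (pseudocount of 1 CPM, library total) for the Ensembl transcripts compared, by length class, with each transcript a point shifted sideways, the class median a bar and dashed lines at 2-fold. The 120 to 149 base class, in red, has 71 points and a median of 0.02, and the 91 to 119 base class has 12 points and a median of -2.00.

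The deposited covered percent shows how much of these short transcripts the reads covered, but not which end was left without a read. Every one of the set's 22 single-read transcripts at 30 days and 15 at 90 days was covered over exactly 90 bases, as were all 1806 and 2439 single-read features of the catalogue, to the rounding of the deposited percent. A read was thus placed over 90 bases, and no feature shorter than 91 bases was listed. A 90-base read can start at 31 positions on a transcript of 120 bases and at 60 on one of 149, so RPKM, which divides by the full length, weighs the longer members up. Counted per possible start, the 10 leading transcripts of each age were the same 10 as by RPKM at that age, with small exchanges of order. At 30 days the 135-base transcript had 39.4 reads per start and the 145-base one 37.5, the reverse of their RPKM order. At 90 days ENSSSCT00000031393 had 28.4 and the first 138-base transcript 25.6, again the reverse. Ratios between ages of 1 transcript are unaffected by this.

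On transcripts of this length any reads of 90 bases placed without gaps overlap, so the covered part is 1 block and bases without a read lie at the ends. No transcript of the set was covered over its full length in either library (0 at each age), not even the first 141-base transcript, whose 7714 reads at 30 days left 4 bases uncovered. Among the 52 transcripts with at least 20 reads at 30 days, between 1 and 31 bases were without a read, with a median of 8. Among the 51 at 90 days it was 1 to 20, with a median of 9. The uncovered length was alike in the libraries for many members. Of the 21 transcripts with at least 100 reads at both ages, 5 had exactly the same number of uncovered bases and 14 differed by at most 2. The 130-base transcript that was seventh by mean CPM left 10 bases at both ages, with 569 and 773 reads, and the first 138-base transcript left 1 base at both, with 369 and 1255.

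**Figure D4:**
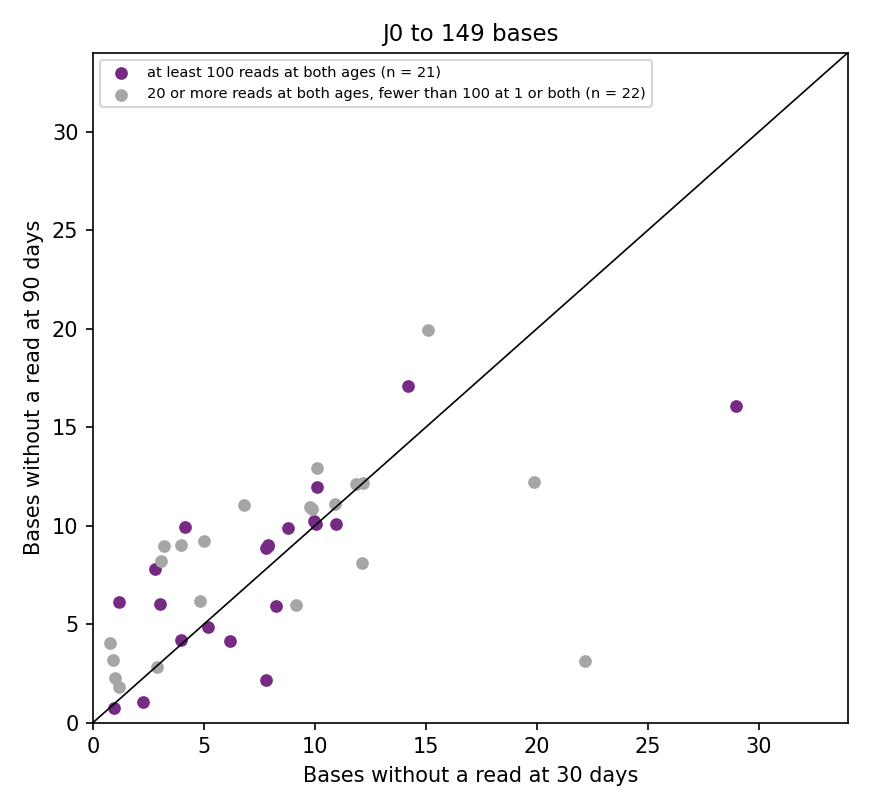
Bases without a read at 90 days against those at 30 days for the 43 transcripts with at least 20 reads at both ages, with points shifted slightly to separate ties and the line of equality. Most points lie near the line, and 2 differ by more than 10 bases, both with more uncovered bases at 30 days.

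A few transcripts had reads confined to part of their length at 30 days, among them both named transcripts that were lower at 90 days. The 546 reads of ENSSSCT00000032252 covered 108 of 137 bases, so all of them started within 19 neighbouring positions of the 48 possible. At 90 days its 102 reads covered 121 bases, with starts spread over 32 positions. The 27 reads of ENSSSCT00000021229 covered 100 of 131 bases at 30 days, within 11 start positions of 42. Another 137-base transcript, not called in either direction, had nearly equal read numbers but different cover. Its 73 reads at 30 days left 22 bases without a read, and its 78 reads at 90 days left 3. By contrast, ENSSSCT00000031393 left 3 bases at 30 days with 96 reads and 8 at 90 days with 1108. ENSSSCT00000020215 left 10 of 131 bases with its 153 reads at 90 days. At 30 days it left 22 bases, but with only 3 reads. The part of repeated copies of single molecules in these values was not tested.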

How the data were processed

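RNA of whole pig ovary was pooled by age, 1 library each at 30 and 90 days, per the labels. The authors deposited per feature a count of uniquely assigned reads, length, the covered percent of that length and RPKM, per the file headers. Counts summed to the header totals, and RPKM equalled reads divided by length and those totals. Per the submitters' processing notes the tools included TopHat and Cufflinks and the build was Sscrofa10.2. The annotation, counter and strand chemistry were not given in the sources used here, and reads shared by near-identical transcripts could not be assessed. A feature absent from a table was given 0 reads.

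Members and settings were chosen with earlier results of these data known. Counts were scaled to CPM, and the pseudocount of 1 CPM, the minimum of 1 CPM in at least 1 library and the 2-fold rule gave the calls. No p-value was computed. TMM and median-of-ratios factors came from edgeR 4.0.16 over all features, and intervals from scipy 1.17.1. The scripts were tested on simulated data. By identifier, the text names the 2 largest and 2 smallest log2 folds, since the files do not pair identifiers with names. By length, it gives the 10 with the largest mean CPM, those past 2-fold, those with at least 20 reads in 1 library alone (0) and those with at least 20 reads over under 60% of their length. The last could not occur, as 1 read covers 60.4% of 149 bases. The ranks of other members, the length groups, reads per start and scaling to the members' own total were added after seeing the data.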

Additional observations from a re-analysis of the deposited data

How the results depend on the processing

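Against 7 higher, 15 lower and a median log2 fold of 0.02, a pseudocount of 0.1 CPM gave 11 higher and 23 lower. TMM and median-of-ratios factors each gave 12 higher and 7 lower, with medians of 0.34 and 0.36. Leaving the 4 leading features out of the total gave 23 higher and a median of 0.49, in part because its CPM are larger. A 4-fold threshold gave 3 higher and 1 lower. Without a minimum the median over all 142 was -0.15. Scaling to the members' own total, chosen after seeing the data, gave a median of 0.14. The share of reads was 0.570% at 30 days and 0.729% at 90 days outside the 4 most abundant features, and 0.170% and 0.192% without the most abundant member. Another 7 counts and medians stayed within 1.5 times the count or 0.1 of the median. The counts without a minimum could not move, as the pseudocount bars a call under 1 CPM. Scaling factors shift every ratio by construction. No paired analysis was possible because there is 1 library per age, and none could be left out. The 71 transcripts under 1 CPM at both ages could not be called, because of the pseudocount. Of these, 4 had a counting interval of the ratio that did not hold 1, and none of those 4 intervals lay wholly beyond 2-fold. How many such intervals counting error alone would give was not tested, so the 4 are given without a conclusion.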
